A study of Homo sapiens with 5 samples.

Results

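The enzymes that oxidise fatty acids, ketone bodies, branched-chain amino acids and lysine were followed across 5 RNA-seq libraries of HEK293 cells, a long-used line of human embryonic kidney origin. The genes were taken by name from a list of 48, and 44 of them were matched by symbol to a row of the count table. ACAD11, DECR1, BDH1 and BCKDHA had no matched row and were not analysed here. All 44 also passed the filter on low counts, among 16310 tested genes of 16677 in the table. The Control group held 2 libraries of wild-type cells (Control 1 and Control 2). The other group held 3 libraries of cells carrying rs11607019 (T-to-C), a variant that the series places in SIRT3 (variant 1, variant 2 and variant 3). All were grown in basal culture with no treatment named, and whether each library is its own clone or culture is not given in the sources used here. P-values therefore measure only the spread between these libraries, which may be technical.

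Fatty acids enter this pathway as coenzyme A esters, are carried into mitochondria by the carnitine shuttle and are shortened in a repeated cycle of oxidation, hydration, a further oxidation and thiolysis. Acyl-CoA dehydrogenases pass their electrons through the electron transfer flavoprotein (ETF) to the respiratory chain, and very long or branched chains are first shortened in peroxisomes. The branched-chain amino acids leucine, isoleucine and valine are broken down in mitochondria by a closely related series of dehydrogenases, carboxylases and hydrolases. SIRT3, a mitochondrial NAD-dependent deacetylase, is known to act on several of these enzymes as proteins, which mRNA counts do not show.

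The promoters are shown first for 5 members whose levels carry the comparisons that follow. HADHA and HADHB are printed because both encode subunits of the trifunctional protein and are read in opposite directions from the same short interval of chromosome 2. Their RefSeq start sites lie 307 bases apart, and the windows share 194 bases. ETFA, OXCT1 and CPT1A are among the members with the smallest p-values. Each window runs 5′ to 3′ on the strand of its gene, from 250 bases before to 50 bases after the start site, from RefSeq on GRCh38.p14. Capitals mark CCAAT boxes (CCAAT) and GC boxes (GGGCGG) on either strand. The windows are chr2:26244583-26244882 (reverse strand) for HADHA, chr2:26244689-26244988 (forward) for HADHB, chr15:76311420-76311719 (reverse) for ETFA, chr5:41870376-41870675 (reverse) for OXCT1 and chr11:68844228-68844527 (reverse) for CPT1A.
HADHA: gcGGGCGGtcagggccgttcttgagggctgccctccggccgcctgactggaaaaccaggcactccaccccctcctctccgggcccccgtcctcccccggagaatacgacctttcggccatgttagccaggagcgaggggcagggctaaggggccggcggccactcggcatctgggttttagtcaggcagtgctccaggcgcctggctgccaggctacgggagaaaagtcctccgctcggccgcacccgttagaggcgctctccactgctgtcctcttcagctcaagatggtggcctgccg
HADHB: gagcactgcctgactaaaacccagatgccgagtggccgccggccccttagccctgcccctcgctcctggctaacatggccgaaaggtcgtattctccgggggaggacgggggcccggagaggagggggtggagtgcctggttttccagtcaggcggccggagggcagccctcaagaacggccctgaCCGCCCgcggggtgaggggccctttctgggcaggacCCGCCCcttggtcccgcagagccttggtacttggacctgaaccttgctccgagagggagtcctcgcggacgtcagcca
ETFA: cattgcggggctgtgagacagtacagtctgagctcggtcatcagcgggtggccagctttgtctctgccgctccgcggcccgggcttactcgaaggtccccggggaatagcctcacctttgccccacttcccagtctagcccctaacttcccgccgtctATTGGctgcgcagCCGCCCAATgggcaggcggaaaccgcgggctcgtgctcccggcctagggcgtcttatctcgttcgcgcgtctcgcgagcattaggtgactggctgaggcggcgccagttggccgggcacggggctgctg
OXCT1: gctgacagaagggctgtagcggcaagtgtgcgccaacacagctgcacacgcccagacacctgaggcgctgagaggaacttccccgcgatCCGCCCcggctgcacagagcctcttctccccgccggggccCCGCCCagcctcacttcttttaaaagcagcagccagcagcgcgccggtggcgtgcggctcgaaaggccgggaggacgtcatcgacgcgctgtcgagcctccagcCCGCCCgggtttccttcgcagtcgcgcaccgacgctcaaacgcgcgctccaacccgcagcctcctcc
CPT1A: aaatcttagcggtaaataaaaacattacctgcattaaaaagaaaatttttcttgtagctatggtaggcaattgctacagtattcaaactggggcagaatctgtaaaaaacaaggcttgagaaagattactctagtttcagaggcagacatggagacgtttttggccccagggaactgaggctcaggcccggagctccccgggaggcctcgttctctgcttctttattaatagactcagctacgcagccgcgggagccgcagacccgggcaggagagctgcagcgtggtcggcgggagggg

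HADHB held 2 GC boxes, OXCT1 held 3, HADHA and ETFA held 1 each and CPT1A held none. ETFA held 2 CCAAT boxes, of which 1 overlaps its GC box. The GC box of HADHA and the first of HADHB are the same site, read on opposite strands. The CPT1A window was also the poorest in G and C, at 50%, against 66.3% to 68.7% in the other 4. Of the 48 listed genes, 39 had a window in the RefSeq table, taken as the first listed for genes with several. BCKDHA is among these, though it had no matched row of counts. A GC box was found in 32 of these 39 (82.1%) and in 44.6% of all 27305 windows, and a CCAAT box in 15 of 39 (38.5%) and in 35.7% of all windows. The half-site AAGGTCA, which nuclear receptors such as ESRRA and the PPARs can bind, was in 0 of 39 windows and in 3.97% of all windows. The ETS motif CCGGAAG was in 3 of 39 (7.69%, against 10.7% of all) and the CRE motif TGACGTCA in 2 of 39 (5.13%, against 1.98%). The 27305 windows were not limited to the 16677 genes of the count table, so they are not a matched background. These matches describe the letters of the windows only.

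Library totals ran from 17122569 to 17596084 counts, and the members held between 38 and 7606 counts in a library. SIRT3 itself stood at 28.9 and 29.3 CPM (counts scaled to library size by the TMM method) in Control 1 and Control 2, and at 26.5, 15.8 and 30.2 CPM in variant 1, variant 2 and variant 3 (log2 change −0.27, SE 0.26, adjusted p = 0.815, edgeR's quasi-likelihood test). Variant 2 was its low library, and without it the log2 change was −0.04. Of 10 genes listed as marks of HEK293 and embryonic kidney 5 were in the table, VIM and PAX2 among them. Of the markers of other cells, 1 of 6 for hepatocytes (CPS1), 1 of 6 for muscle (ACTA1), 0 of 5 for adipocytes, 0 of 6 for blood and endothelium and 2 of 6 for fibroblasts were in it. CPS1, a urea cycle enzyme, stood at 9.44 and 18.6 CPM in Control and at 4.33, 5.396 and 9.15 CPM in the variant, with an unadjusted p of 0.0126, and its part in any result was not tested. The lowest count of any gene in the table was 3. In bulk RNA, fewer cells with a transcript and less of it per cell cannot be told apart.

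Across the 44 members most fitted changes were small, but 2 against 3 libraries leave wide intervals (median SE 0.18 on the log2 scale). No member had an adjusted p under 0.05 by edgeR or by DESeq2, and 0.00% of all tested genes passed in edgeR. DESeq2 called 32 genes in all. The smallest adjusted p of a member was 0.616 in edgeR. The median log2 change (the fitted log2 ratio of variant to Control) was −0.02 over the members and 0.00 over all tested genes, with 20 members higher and 24 lower. Only CPT1C, OXCT1 and CPT1A had an absolute log2 change of 0.5 or more. In 23 of the 44 members Control 1 and Control 2 differed from each other by more than the groups did. The same count over all tested genes was not made. Single libraries vary more than group means, so the 23 do not show that the groups differed little.

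At an unadjusted p under 0.05 there were 5 members (11.4%), against 7.62% of all tested genes. OXCT1 and CPT1A were higher in the variant (2 of 44, where 4.11% of all tested genes were), and ETFA, ACSL3 and HADHB were lower (3 of 44, where 3.51% were). The count was 6 by DESeq2 and by limma-voom, where 7.40% and 7.24% of all tested genes had such a p. It depended on single libraries, being 8 without variant 1, where 7.65% of all tested genes had such a p. It was 3 without variant 2 (4.73% of all tested genes) and 3 without variant 3 (9.999%). The share over all tested genes thus moved with the library left out as well. The groups did not overlap in 13 members (29.5%), against 24.8% of all tested genes. In 10 of these (22.7%) every variant library lay below both Control libraries, where the share over all genes was 13.0%. In 3 members (6.82%) every variant library lay above both, where it was 11.8%.

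**Figure D1:**
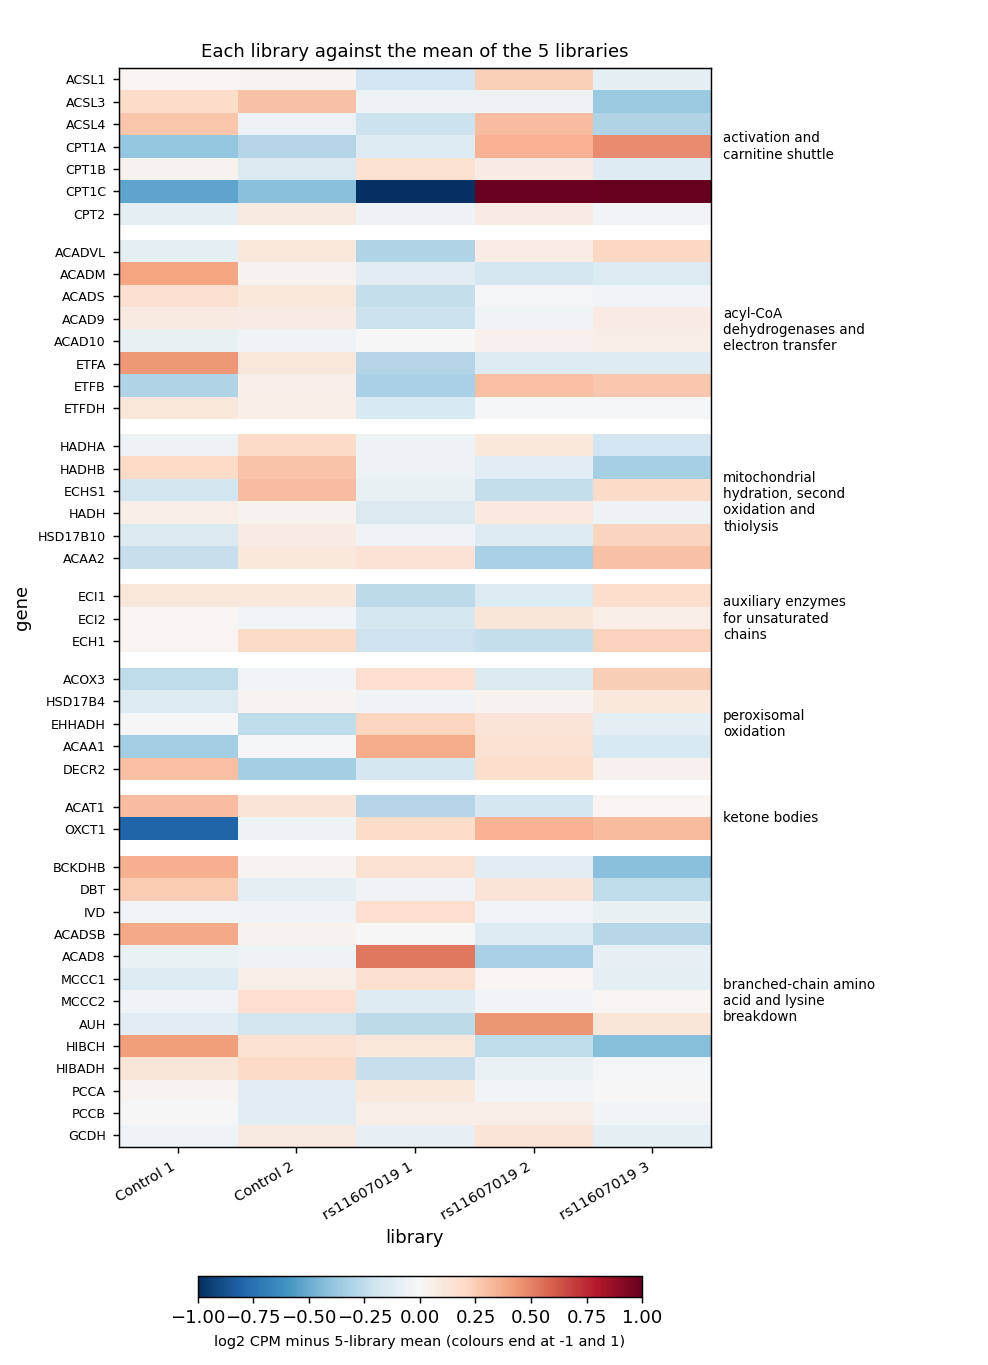
Heat map of the 44 genes (rows, grouped by role) in the 5 libraries (columns), coloured by log2 CPM minus the mean of the 5 libraries (rs11607019 1 to 3 are variant 1 to 3). CPT1C differs most between libraries (4.32-fold), followed by OXCT1 with Control 1 as its low library, and in 13 of the 44 rows the groups do not overlap.

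Activation and the carnitine shuttle had no common direction, and held CPT1C, the member with the widest range between libraries. Of its 7 genes 3 were higher and 4 lower, with a median log2 change of 0.00. CPT1A, the liver-type carnitine palmitoyltransferase that controls entry of long chains into mitochondria, stood at 13.99 and 14.9 CPM in Control 1 and Control 2 and at 16.6, 23.4 and 25.5 CPM in variant 1, variant 2 and variant 3. All variant libraries lay above both Control libraries, with variant 1 close to Control 2. The means were 14.5 ± 0.674 CPM (SD, n = 2) and 21.8 ± 4.61 CPM (SD, n = 3), and the log2 change was 0.59 (SE 0.23, 95% confidence interval 0.07 to 1.11). It had unadjusted p = 0.0295 and edgeR adjusted p = 0.625.

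CPT1C, the form of the enzyme known from the brain and from the endoplasmic reticulum, split the variant group. It stood at 3.21 and 3.48 CPM in the Control libraries, at 2.20 CPM in variant 1 and at 9.41 and 9.49 CPM in variant 2 and variant 3, from 38 to 168 counts. Variant 1 was thus the lowest of all 5 libraries while variant 2 and variant 3 lay far above the rest, a 4.32-fold range. The fold change of 1.07 on the log2 scale (SE 0.54, adjusted p = 0.667) was the largest of any member, with a confidence interval from −0.14 to 2.29, and it depended on the setting. It was 1.498 without variant 1, 0.80 without variant 2 as without variant 3, 0.51 with the replicate block and 0.47 with the block and the GC and length correction together. CPT1B, the muscle form, stood between 7.30 and 9.02 CPM in all 5 libraries. Its value is uncertain, since 66.4% of its exonic bases in GENCODE also belong to the read-through gene CHKB-CPT1B. CPT2, which returns the acyl group to coenzyme A inside the mitochondrion, had a log2 change of 0.00 (SE 0.18).

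The acyl-CoA synthetases, which activate fatty acids, were led by ACSL3, a form of the endoplasmic reticulum and lipid droplets. ACSL3 stood at 176 and 191 CPM in Control 1 and Control 2 and at 149.8, 150.2 and 119.8 CPM in variant 1, variant 2 and variant 3. The groups did not overlap, and variant 3 was lowest. Its log2 change was −0.39 (SE 0.16), with unadjusted p = 0.0321 and edgeR adjusted p = 0.627. Chromosome 2, where it lies, had a median log2 change of −0.14 over its tested genes. ACSL4, which prefers arachidonate, and ACSL1 had log2 changes of −0.16 (SE 0.21) and −0.03 (SE 0.18), and their groups overlapped.

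**Figure D2:**
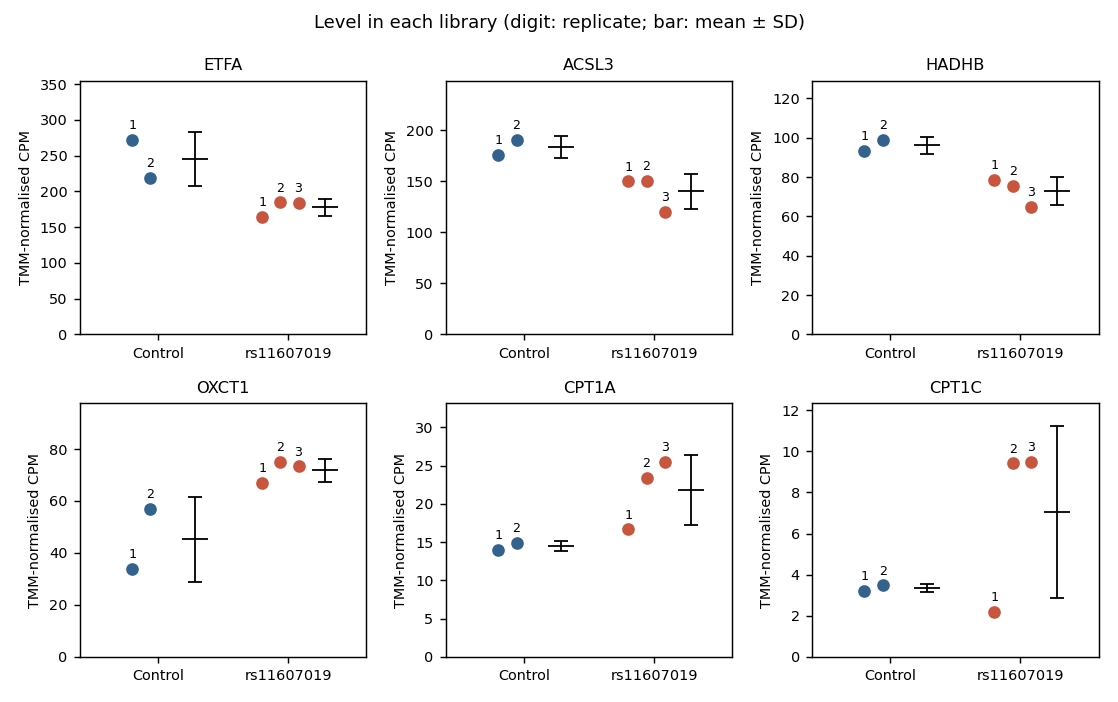
Level of 6 genes in each library, in TMM-normalised CPM from 0 (points numbered by replicate, with mean ± SD for the 2 Control and 3 variant libraries). The variant points of ETFA, ACSL3 and HADHB lie below both Control points and those of OXCT1 and CPT1A above both, while CPT1C has variant 1 at 2.20 CPM and the other variant libraries above 9 CPM.

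Acyl-CoA dehydrogenases and the electron transfer genes were lower in the variant in 6 of 8 members, with a median log2 change of −0.15. The groups did not overlap in 5 of the 8 (62.5%, against 24.8% of all tested genes), 4 of them lower (13.0% of all tested genes were). ETFA, the alpha subunit of the flavoprotein that collects electrons from all these dehydrogenases, had the smallest p of any member. It stood at 273 and 219 CPM in Control 1 and Control 2 and at 164, 185 and 184 CPM in variant 1, variant 2 and variant 3. All variant libraries were below both Control libraries, and Control 1 was highest. The means were 246 ± 38.1 CPM (SD, n = 2) and 178 ± 11.6 CPM (SD, n = 3). The log2 change was −0.47 (SE 0.15, 95% confidence interval −0.80 to −0.13), with unadjusted p = 0.0120 and edgeR adjusted p = 0.616. Without Control 1 it was −0.30.

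ACADM, the medium-chain dehydrogenase, stood at 68.8 and 53.5 CPM in the Control libraries and at 48.3, 46.3 and 47.4 CPM in the variant libraries. The 3 variant libraries were close to each other, while Control 1 stood above Control 2 by a factor of 1.29. Its log2 change was −0.37 (SE 0.17, adjusted p = 0.657), and −0.18 without Control 1. ACADS, the short-chain dehydrogenase, and ETFDH, which hands electrons from ETF to ubiquinone, also had every variant library below Control. Their log2 changes were −0.23 (SE 0.18) and −0.15 (SE 0.18). ACADVL, the very-long-chain dehydrogenase, was the most abundant of these genes per length, at 77.1 RPKM, a count scaled by exonic length and library size. It stood at 350.5 and 402 CPM in the Control libraries and at 302, 391 and 429.6 CPM in the variant libraries, with a log2 change of −0.01 (SE 0.17).

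ETFB, the beta subunit of ETF, did not separate the groups. It stood at 29.4 and 37.5 CPM in Control 1 and Control 2 and at 29.01, 44.8 and 43.8 CPM in variant 1, variant 2 and variant 3, and Control 1 and variant 1 were the low libraries. Its log2 change of 0.23 (SE 0.23) ran from 0.06 without Control 1 to 0.41 without Control 2. ACAD9, which also serves as an assembly factor of complex I, had a log2 change of −0.14 (SE 0.17). ACAD10 was the least variable of all members over the libraries, from 28.8 to 31.6 CPM. All its variant libraries lay above Control, by a log2 change of 0.09 (SE 0.17).

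The enzymes of hydration, the second oxidation and thiolysis had a median log2 change of −0.09, with 4 of 6 members lower. Without Control 2 that median was 0.08. HADHB, the thiolase subunit of the trifunctional protein, stood at 93.1 and 99.1 CPM in Control 1 and Control 2 and at 78.6, 75.5 and 64.6 CPM in variant 1, variant 2 and variant 3. The groups did not overlap, with variant 3 lowest. The log2 change was −0.40 (SE 0.16), with unadjusted p = 0.0311 and edgeR adjusted p = 0.627, and −0.26 after subtracting the median of chromosome 2. HADHA, the hydratase and dehydrogenase subunit read from the other side of the same interval, stood at 205 and 243 CPM in the Control libraries and at 205, 228 and 186 CPM in the variant libraries. Its groups overlapped, with a log2 change of −0.12 (SE 0.15).

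HSD17B10, which oxidises short branched acyl-CoAs and is also a subunit of mitochondrial RNase P, was the most abundant member per length at 183 RPKM. It stood at 184 and 216 CPM in Control 1 and Control 2 and at 198, 186 and 238 CPM in variant 1, variant 2 and variant 3. ECHS1, the short-chain hydratase, followed with 118 RPKM and a log2 change of −0.11 (SE 0.19). ACAA2, the mitochondrial thiolase, and HADH, the short-chain hydroxyacyl-CoA dehydrogenase, had log2 changes of 0.11 (SE 0.21) and −0.07 (SE 0.16). In all 4 the groups overlapped.

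Auxiliary enzymes for unsaturated chains showed no separation between groups. The isomerase ECI1 stood at 132 and 131 CPM in Control 1 and Control 2 and at 102, 111 and 138 CPM in variant 1, variant 2 and variant 3. Variant 3 was the highest library and variant 1 the lowest, so the variant group spanned both Control libraries. ECH1, the dienoyl-CoA isomerase, also had variant 3 highest and variant 1 and variant 2 lowest, with 82.9 and 93.02 CPM in Control and 70.7, 69.2 and 95.96 CPM in the variant. Their log2 changes were −0.17 (SE 0.17) and −0.16 (SE 0.19), and that of ECI2 was 0.02 (SE 0.16). ECI2 shares 27.1% of its exonic bases with C6orf201 on the other strand, and ECH1 shares 16.3% with AC008982.1 on the same strand.

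Peroxisomal enzymes all had a positive log2 change, from 0.01 to 0.32 with a median of 0.21, but none had groups that did not overlap and the smallest adjusted p was 0.722. ACAA1, the peroxisomal thiolase, stood at 34.6 and 43.3 CPM in Control 1 and Control 2 and at 56.9, 49.02 and 39.6 CPM in variant 1, variant 2 and variant 3. Variant 3 lay between the Control libraries. ACAA1 shares 19.7% of its exonic bases with DLEC1 on the other strand. Its log2 change was 0.32 (SE 0.20), and it was 0.16 without Control 1 and 0.19 without variant 1. ACOX3, an oxidase of branched chains, stood at 9.79 and 11.5 CPM in Control and at 13.1, 10.6 and 13.9 CPM in the variant (log2 change 0.24, SE 0.23; 0.13 without Control 1 and 0.16 without variant 3). HSD17B4, the multifunctional enzyme that hydrates and oxidises branched and very long chains, was the most abundant of these genes per length, at 13.6 RPKM. It stood at 131 and 147 CPM in Control and at 141, 148 and 156 CPM in the variant. EHHADH, the other multifunctional enzyme, had 0.21 (SE 0.23). DECR2, a peroxisomal reductase, had 0.01 (SE 0.24), and with the GC and length correction it had −0.05, so that 4 of 5 remained positive. DECR2 shares 14.1% of its exonic bases with NME4 on the same strand.

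The 2 ketone body genes in the table lay on opposite sides. OXCT1, which activates acetoacetate so that ketone bodies can be used, stood at 33.7 CPM in Control 1, 56.8 CPM in Control 2 and 66.9, 75.03 and 73.3 CPM in variant 1, variant 2 and variant 3. All variant libraries lay above both Control libraries, but the largest gap was between the Control libraries, where Control 1 was 0.593 times Control 2. The means were 45.2 ± 16.3 CPM (SD, n = 2) and 71.8 ± 4.27 CPM (SD, n = 3). The log2 change was 0.67 (SE 0.22, 95% confidence interval 0.16 to 1.17), with unadjusted p = 0.0148 and edgeR adjusted p = 0.616. It was 0.34 without Control 1 and 1.09 without Control 2. ACAT1, the mitochondrial acetoacetyl-CoA thiolase, which also acts on isoleucine, stood at 95.01 and 83.7 CPM in Control and at 62.6, 68.2 and 77.7 CPM in the variant. Its groups did not overlap, with a log2 change of −0.36 (SE 0.16, adjusted p = 0.657).

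Branched-chain amino acid and lysine breakdown had 6 members higher and 7 lower, a median log2 change of −0.04 and no member at an unadjusted p under 0.05. Without variant 2 that median was −0.11. Its groups did not overlap in 3 of 13 members (23.1%, near the 24.8% of all tested genes), all lower in the variant. HIBCH, which releases 3-hydroxyisobutyrate from its coenzyme A ester in valine breakdown, stood at 40.2 and 33.4 CPM in Control 1 and Control 2 and at 32.6, 25.3 and 22.3 CPM in variant 1, variant 2 and variant 3. Variant 1 lay just under Control 2. Its log2 change was −0.46 (SE 0.21, adjusted p = 0.657).

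ACADSB, the dehydrogenase of isoleucine breakdown, stood at 73.9 and 58.3 CPM in the Control libraries and at 56.98, 51.95 and 46.8 CPM in the variant libraries, with a log2 change of −0.35 (SE 0.18). Control 1 was the high library, and without it the value was −0.17. HIBADH, the next enzyme of valine breakdown after HIBCH, was the most abundant gene of the group per length (20.7 RPKM). It stood at 51.9 and 54.4 CPM in Control and at 40.7, 45.6 and 47.3 CPM in the variant, and the log2 change was −0.25 (SE 0.16). BCKDHB and DBT, subunits of the branched-chain ketoacid dehydrogenase that commits all 3 amino acids to breakdown, had −0.31 (SE 0.22) and −0.14 (SE 0.21). Neither value was stable: BCKDHB was −0.14 without Control 1, −0.18 without variant 3 and −0.07 with the replicate block and the GC and length correction together, and DBT ran from −0.30 to 0.05 over all refits. BCKDHB stood at 27.6 and 21.96 CPM in Control and at 23.9, 19.9 and 16.1 CPM in the variant, so that variant 1 lay between the Control libraries.

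Other genes of the group overlapped between the groups. IVD, the dehydrogenase of leucine breakdown, GCDH, which acts on glutaryl-CoA from lysine, and ACAD8, the dehydrogenase of valine breakdown, had log2 changes of 0.07 (SE 0.15), −0.04 (SE 0.17) and 0.14 (SE 0.25). ACAD8 stood out in variant 1, at 53.9 CPM against 29.9 to 36.2 CPM in the other 4 libraries. AUH, the hydratase of leucine breakdown, had a log2 change of 0.28 (SE 0.24). It lies on chromosome 9, whose tested genes had a median of 0.35, and relative to that median its value was −0.07. With the GC and length correction the value of AUH was 0.42, and its groups then did not overlap.

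**Figure D3:**
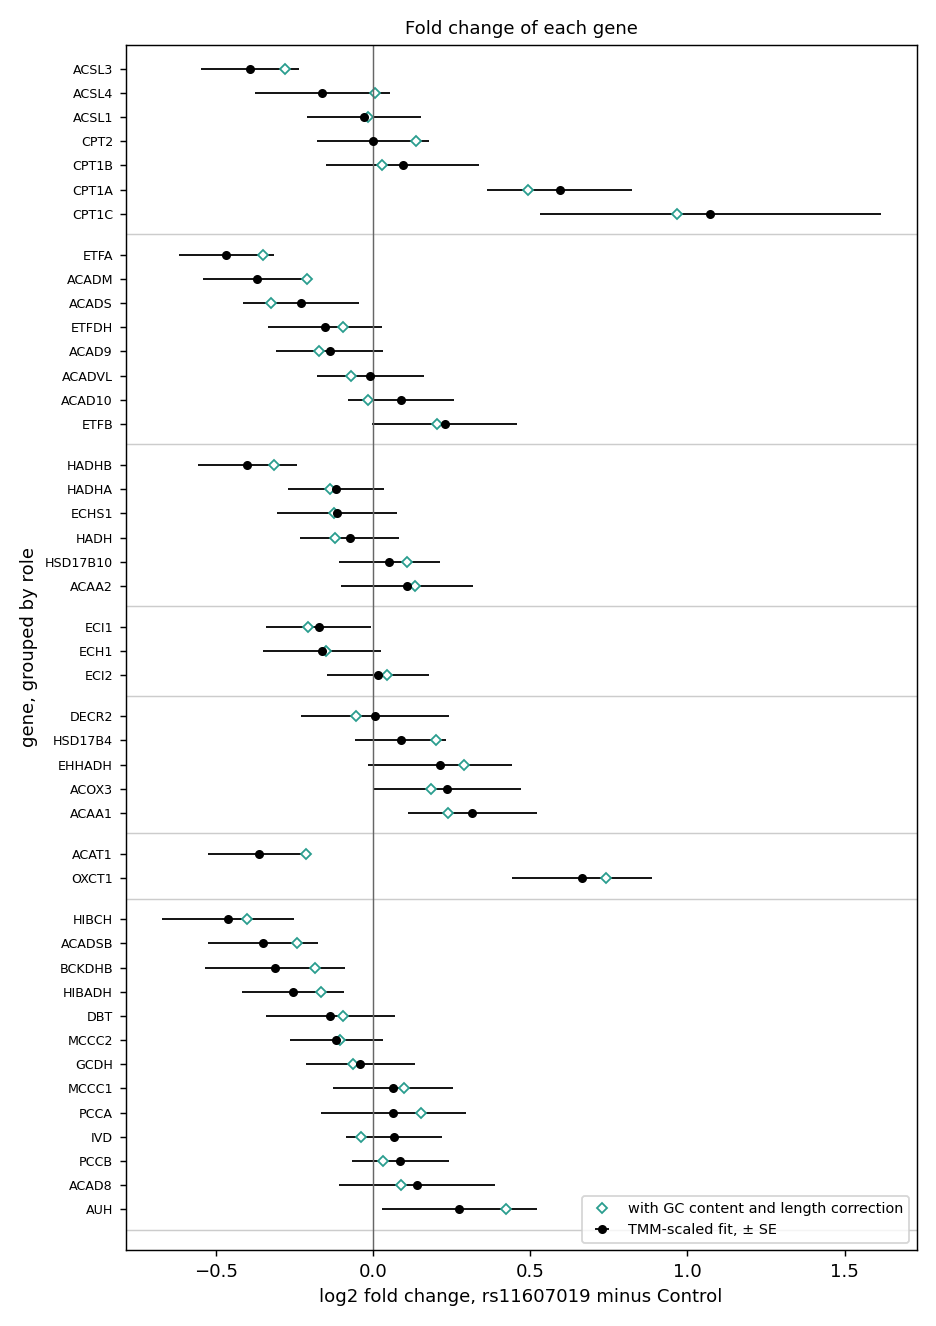
Log2 fold change of each gene (variant minus Control; black points with SE bars) and the same value with the GC and length correction (open diamonds), grouped by role. CPT1C has the widest bar (SE 0.54), all 5 peroxisomal points lie at or above 0, and only CPT1C, OXCT1 and CPT1A lie beyond 0.5 in either direction.

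Subunits that form a complex together were compared as a ratio of counts within each library, which does not depend on scaling between libraries. BCKDHA could not be paired with BCKDHB, so 4 pairs were compared with an exact two-sided permutation test. Its p is 2 times the smaller 1-sided p, so with 2 against 3 libraries it cannot go below 0.2. HADHA/HADHB was 2.20 and 2.45 in Control 1 and Control 2 and 2.60, 3.02 and 2.87 in variant 1, variant 2 and variant 3. Every variant library had the higher ratio, the geometric mean ratio being 1.22 times that of Control (exact permutation p = 0.2, adjusted p = 0.4). ETFA/ETFB was 9.26 and 5.84 in the Control libraries and 5.67, 4.12 and 4.21 in the variant libraries. These groups also did not overlap (0.628 times, exact permutation p = 0.2, adjusted p = 0.4), but Control 2 and variant 1 were close, and the log2 difference of −0.67 was −0.34 without Control 1 and −1.004 without Control 2. With the GC and length correction the HADHA/HADHB groups still did not overlap and the ETFA/ETFB groups did.

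Ratios within the biotin carboxylases overlapped between the groups. MCCC1/MCCC2, of the leucine pathway, was 0.175 and 0.174 in Control and 0.229, 0.194 and 0.173 in the variant (exact permutation p = 0.6, adjusted p = 0.8). PCCA/PCCB, of propionyl-CoA carboxylase, was 0.148 and 0.146 in Control and 0.1497, 0.136 and 0.148 in the variant (exact permutation p = 1, adjusted p = 1). MCCC1 stood at 19.4 and 22.1 CPM in Control and at 23.7, 21.5 and 19.8 CPM in the variant, and MCCC2 at 111 and 127 CPM and at 104, 111 and 114 CPM. PCCA stood between 8.21 and 9.54 CPM and PCCB, which shares 22.1% of its exonic bases with STAG1 on the other strand, between 56.4 and 63.7 CPM in all libraries. The highest library was 1.13 to 1.23 times the lowest for these 4 genes. With the GC and length correction the PCCA/PCCB groups no longer overlapped, the variant being higher by 0.12 on the log2 scale, while MCCC1/MCCC2 still overlapped.

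**Figure D4:**
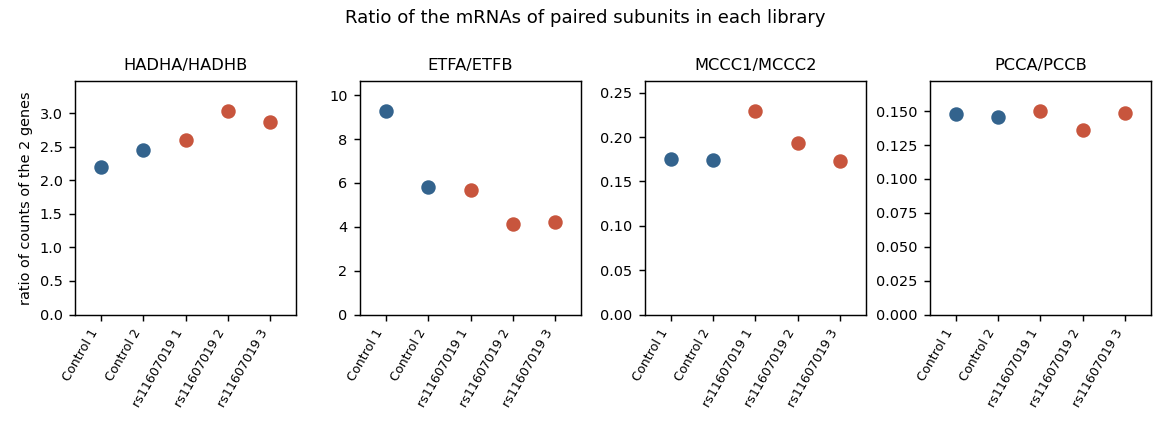
Ratio of the counts of 2 subunit genes in each library, from 0 (blue Control, red variant), for 4 complexes. The 3 variant libraries lie above both Control libraries for HADHA/HADHB (2.60 to 3.02 against 2.20 and 2.45) and below them for ETFA/ETFB, and the groups overlap for MCCC1/MCCC2 and PCCA/PCCB.

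Other genes of these pathways, from 6 lists, were examined in the same fit, and 0 had an adjusted p under 0.05. Of 25 further fatty acid oxidation genes 17 were higher and 8 lower, and 1 had an unadjusted p under 0.05 (4%, against 7.62% of all tested genes). This was SCP2, the peroxisomal thiolase and sterol carrier, with 145 and 98.4 CPM in Control and 84.3, 92.02 and 79.9 CPM in the variant (log2 change −0.51, SE 0.19, adjusted p = 0.616). Control 1 was the high library. CRAT, the carnitine acetyltransferase, is named after its values were seen, because it ranged 11.2-fold between variant libraries. It stood at 24.9 and 20.3 CPM in Control and at 4.68, 33.9 and 52.4 CPM in variant 1, variant 2 and variant 3, and variant 1 was thus the lowest library for it as for CPT1C.

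Of 17 further genes of branched-chain amino acid and propionate metabolism 11 were higher and 6 lower. DLD, the dehydrogenase subunit shared by the 2-oxoacid dehydrogenases, had the only unadjusted p under 0.05 there (5.88%, against 7.62% of all tested genes). It stood at 217 and 167 CPM in Control and at 159, 151 and 139 CPM in the variant (log2 change −0.36, SE 0.16, adjusted p = 0.649). With the GC and length correction it was −0.21 and passed no longer (unadjusted p 0.127). BCKDK, the kinase that restrains the branched-chain dehydrogenase, had 0.03 (SE 0.17). Among 7 further ketone body genes BDH2, a hydroxybutyrate dehydrogenase of the cytosol, was the only one at an unadjusted p under 0.05 (14.3%). It stood at 22.3 and 18.99 CPM in Control and at 13.5, 14.1 and 12.9 CPM in the variant (log2 change −0.61, SE 0.20, adjusted p = 0.616), and the groups did not overlap.

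Genes of flavin supply and partners of the dehydrogenases held 3 of 9 at an unadjusted p under 0.05, all lower (3.51% of all tested genes were lower at that p). The groups did not overlap in 7 of the 9, against 24.8% of all tested genes. Of the 7, 4 were lower (13.0% of all tested genes were) and 3 higher (11.8% were). With the GC and length correction 3 were lower without overlap (11.8% of all tested genes were) and 2 higher (11.4% were). ETFRF1, a small protein that binds ETF and regulates its flavin, stood at 20.9 CPM in Control 1, 10.6 CPM in Control 2 and 7.98, 7.63 and 8.58 CPM in the variant libraries (log2 change −0.97, SE 0.29, adjusted p = 0.616). TMEM126B and NDUFAF1, which assemble complex I together with ACAD9, had −0.66 (SE 0.21) and −0.48 (SE 0.19). TMEM126B stood at 40.2 and 28.1 CPM in Control and at 21.2, 19.9 and 23.9 CPM in the variant. NDUFAF1 stood at 29.3 and 28.5 CPM in Control and at 20.1, 18.6 and 23.5 CPM in the variant, so its Control libraries were close to each other. ECSIT, another assembly partner, had 0.19 (SE 0.16). With the GC and length correction ETFRF1 had −0.49 (unadjusted p 0.0654) and TMEM126B −0.32 (0.0840), so both passed no longer, while NDUFAF1 had −0.40 (0.0351). RFK, the kinase that makes flavin mononucleotide, then had 0.47 (0.0138), where it had been 0.25 without the correction.

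Transcriptional regulators of the pathway had 4 of 14 genes higher and 10 lower, with a median of −0.04 and none at an unadjusted p under 0.05. PPARA, the nuclear receptor best known for inducing fatty acid oxidation, had −0.03 (SE 0.19) and ESRRA −0.03 (SE 0.20). RXRA, the partner of the PPARs, had the smallest p of the list, with a log2 change of 0.49 (SE 0.23, adjusted p = 0.657). It stood at 67.3 and 61.6 CPM in Control and at 67.2, 118 and 87.2 CPM in the variant, with variant 1 between the Control libraries. It lies on chromosome 9, with its median of 0.35. The 8 further genes of lysine and tryptophan breakdown had 2 higher and 6 lower, with none at an unadjusted p under 0.05. The smallest p was that of ALDH7A1, an aldehyde dehydrogenase of lysine breakdown, at −0.25 (SE 0.15, adjusted p = 0.702). It stood at 159.6 and 195 CPM in Control and at 143, 151 and 152 CPM in the variant, and the groups did not overlap.

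GC content moved with these values. Across the 44 members, which share their libraries and are not independent, Spearman's correlation of GC content with the log2 change was 0.268, and across 10854 tested genes with a mean log2 CPM above 3 it was 0.403. Within single libraries the correlation of GC content with the deviation from the 5-library mean ran over the members from −0.358 in Control 1 to 0.493 in variant 3. The 10 members with every variant library below Control had a median GC content of 43.5%, against 48.7% in the 31 members whose groups overlapped. ACADS was the exception among the 10, at 64.6%. With the GC and length correction the correlation over the members was 0.0595, and their median log2 change was −0.05.

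After that correction 2 members had an unadjusted p under 0.05 (6.34% of all tested genes did). These were OXCT1, higher at 0.74 (SE 0.23; 3.84% of all tested genes were higher at that p), and ETFA, lower at −0.35 (SE 0.14; 2.50% were lower). CPT1A had 0.49, ACSL3 −0.28 and HADHB −0.31. The groups did not overlap in 16 members (36.4%), 11 lower and 5 higher, against 23.2% of all tested genes (11.8% lower and 11.4% higher). Of the 10 members that had been lower without overlap 9 remained so, all but ACSL3. AUH, EHHADH and PCCA became higher without overlap, ACAD9 and ECI1 became lower without overlap, and ACAD10 then overlapped. The part of GC content in the differences between groups was not tested, and no batch is given in the labels.

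**Figure D5:**
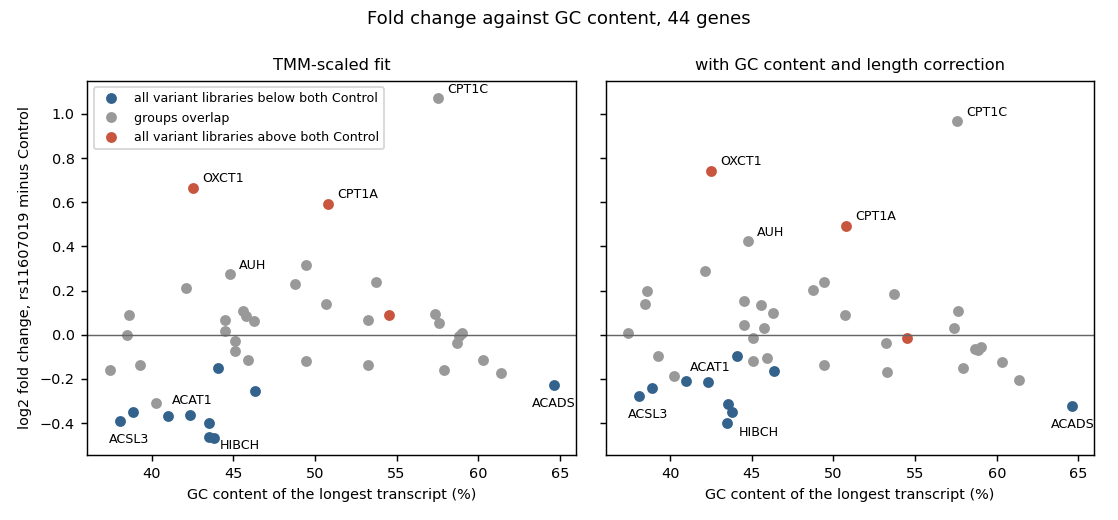
GC content of the longest transcript (%) against the log2 change of each of the 44 genes, before (left) and after (right) the GC and length correction; colours give whether the groups overlapped before correction. The 10 blue points (every variant library below Control) have a median GC content of 43.5%, with ACADS at 64.6%; their median log2 change is −0.37 on the left and −0.26 on the right.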

How the data were processed

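Raw read counts per gene were deposited by the authors for 16677 Ensembl identifiers in 5 libraries. The submitters' processing notes list HISAT2, SAMtools and HTSeq with hg38, with no role or version; the annotation, the strand setting and any filter are not given in the sources used here. Per the labels' protocols, RNA was taken with TRIzol and strand-specific mRNA libraries were sequenced as single-end reads of 50 bases on DNBSEQ. Without a stated strand setting, reads of overlapping genes on opposite strands cannot be told apart.

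Columns were matched by library name. Symbols came from the gene name table (16627) or GENCODE 29 (46). Genes were filtered with filterByExpr (edgeR 4.0.16, R 4.3.3), scaled by TMM and tested in 1 quasi-likelihood fit of all 5 libraries, with group as the only term, robust dispersions and Benjamini-Hochberg adjustment over 16310 genes. The fit was tested on simulated data. Subunit ratios used the exact permutation test of scipy 1.17.1. RPKM used the union of GENCODE exons, and GC content the longest transcript. The GC and length correction used library-wise splines (5 degrees of freedom). Other alternatives were scaling by RLE or upper quartile, all genes unfiltered, at least 10 counts per library, DESeq2 1.42.0, limma-voom (limma 3.58.1), a replicate block, removal of chromosome medians, a prior count of 2 for the subunit ratios and leaving out each library.

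All members could be named. Values in every library are given for members at an unadjusted p under 0.05, the 2 largest changes and the most abundant member of each role, and the subunit pairs; of the other lists, for genes at that p or with the smallest. The members and lists were chosen with earlier results of these data known. The HEK293, hepatocyte, muscle, adipocyte, blood and endothelial, and fibroblast lists are marker lists from general knowledge.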

Additional observations from a re-analysis of the deposited data

How the results depend on the processing

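Of 562 values recomputed under 16 alternatives, 538 were labelled as held. For tested results this meant the same sign and significance, and for medians and ratios a move smaller than the spread between libraries. Since no member was significant in the main fit, a member mostly needed only to keep its sign. CPT1C thus counted as held at 0.47 against 1.07. Counts of members have no such spread: at an unadjusted p under 0.05, 6 against 5 was taken as held and 3 as moved. No member had an adjusted p under 0.05 in any setting run; the smallest was 0.339, by DESeq2. The number at an unadjusted p under 0.05 was 5 with edgeR (7.62% of all tested genes) and 3 with the replicate block (9.55%). It was 2 with the GC and length correction (6.34%) and 1, OXCT1, with both together (8.45%). Leaving out each library gave 0 (without Control 1) to 8 (without variant 1). The replicate numbers are not said to pair libraries. No Control library has number 3, so the replicate block gives variant 3 a term of its own. Variant 3 then adds nothing to the group estimate, and the block is not independent of leaving variant 3 out. Over all tested genes the deviations of same-numbered libraries correlated at 0.120 and −0.113. Those of Control 1 correlated at 0.113 with variant 2 and at −0.221 with variant 3. With 2 Control libraries the deviation of Control 2 mirrors that of Control 1, so these values cannot decide whether libraries are paired. The peroxisomal median of 0.21 became 0.12 with the block and the correction together. Leaving out each library moved the median of all members from −0.0602 (without variant 2) to 0.00330, of the hydration and thiolysis enzymes from −0.149 to 0.0810 (without Control 2), of the ketone body genes from 0.0345 to 0.320 (without Control 2) and of branched-chain breakdown from −0.114 (without variant 2) to −0.00107. Over 14 refits 17 of the 44 members had log2 changes of both signs, the widest being DECR2 (−0.281 to 0.366), ECHS1 (−0.340 to 0.153) and ACAD8 (−0.143 to 0.311). Among the 25 members given in every library 5 did so under at least 1 alternative. With chromosome medians removed ACADVL was 0.0116 and HADHA 0.0187, and with the replicate block HSD17B10 was −0.0542. Leaving out each library gave −0.119 to 0.126 for ACADVL, −0.236 to 0.00936 for HADHA, −0.0581 to 0.172 for HSD17B10, −0.0299 to 0.164 for MCCC1 and −0.00149 to 0.135 for PCCA. SIRT3 ran from −0.527 (block and correction together) to −0.0370 (without variant 2). Fits that keep 1 Control library assume that it varies like the other group. The cause of these changes was not tested. Counts of 38 to 61, as for CPT1C in variant 1 and Control, limit the precision of single libraries.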
